A study of Homo sapiens with 18 samples.

Results

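LNCaP cells, an androgen-responsive human prostate cancer line, were grown without androgen, depleted of the transcription factor E2F2 by RNA interference, and then given the synthetic androgen R1881 or its ethanol vehicle. The response described here is that of these E2F2-silenced cells, read across all genes: 3 libraries from cells given 0.1 nM R1881 for 48 h against 3 libraries from cells given vehicle, which are 6 of the 18 libraries of the study. All cells of the study were seeded in medium with charcoal-stripped serum, which holds little steroid, and were transfected with an siRNA SmartPool, a mixture of siRNAs, by Lipofectamine 2000. The other 12 libraries came from cells with a pool against E2F1 (R1881 or vehicle) and cells with a non-targeting control pool (R1881 or vehicle), 3 biological replicates each, and serve here as the background for the E2F2-silenced cells. Sources for the study differ on timing, since the labels put the treatment 48 h after transfection and the series description puts it some hours earlier. A single cell line, a single dose and a single pool per target limit what the comparison can stand for, and effects of an siRNA pool on genes other than its target are part of every difference between pools.

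Androgens act on genes that lie near DNA sequences called androgen response elements, and in prostate epithelium they turn on genes of secretion, lipid synthesis and growth while other genes are lowered. E2F1 and E2F2 are activator members of the E2F family, which drive genes for DNA replication and cell division when the retinoblastoma protein is inactivated by cyclin-dependent kinases. Many mitotic genes are controlled through the CHR element by the DREAM and B-MYB-FOXM1 complexes, and the p53 target p21 (CDKN1A) inhibits the kinases that free E2F.

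Depletion of the target was visible in every library. The E2F2 gene (chr1:23506430-23531220, minus strand, GRCh38) had 1, 1 and 5 counts in E2F2-silenced cells given R1881 and 3, 0 and 1 counts in E2F2-silenced cells given vehicle, against 50, 33 and 53 counts in control-siRNA cells given R1881 and 29, 21 and 48 counts in control-siRNA cells given vehicle. No E2F2-silenced library overlapped a control library. At 7 and 4 counts in all, a difference in E2F2 between R1881 and vehicle was not detectable at this depth (log2 0.65 ± 1.002 (SE), adjusted p = 0.719). E2F1, the other activator E2F targeted in the study, had 25.4, 21.5 and 25.5 CPM (counts scaled to library size) with R1881 and 11.8, 10.8 and 15.1 CPM with vehicle in E2F2-silenced cells, and the groups did not overlap. It rose by log2 0.94 ± 0.17 (adjusted p = 4.80e-04) and stayed below the control pool, where cells had 73.4, 68.6 and 81.2 CPM with R1881 and 35.2, 33.6 and 43.0 CPM with vehicle.

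The 6 libraries held 12112916 to 12479037 counts with R1881 and 11017181 to 11762922 counts with vehicle. Replicate 3 stood apart: the chi-square per degree of freedom between replicates 1 and 2 was 2.49 with R1881 and 2.02 with vehicle, while comparisons with replicate 3 gave 9.85 to 15.7, and the deviation of replicate 3 from its group mean followed gene GC content across 12687 genes (r = 0.528 with R1881 and 0.709 with vehicle, a description across genes). It stood further apart in the vehicle groups of the other pools, which enter the differences in response. Comparisons with replicate 3 there gave 79.6 and 89.5 with control siRNA and 34.5 and 43.0 with E2F1 siRNA, with r of 0.825 and 0.788. In the R1881 groups of those pools they gave 7.62 to 17.5. In the E2F2-silenced libraries, mitochondrial transcripts took 5.16% to 6.01% of counts with R1881 and 5.62% to 6.55% with vehicle, and the nuclear RNA MALAT1 took 4.85%, 4.78% and 4.11% with R1881 and 6.71%, 7.13% and 5.22% with vehicle. The part of these differences in the results was not tested. Luminal epithelial markers were abundant, with KRT8 at 817, 818 and 743 CPM with R1881 and 489.9, 507 and 647 CPM with vehicle, and 12 of 15 markers of blood, stromal, endothelial and basal cells were too low to test, with the T cell marker CD3E at 0 counts in all 18 libraries. In bulk RNA, a change in the share of cells in a state and a change of RNA per cell cannot be told apart.

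R1881 changed 3465 of the 15185 genes tested in E2F2-silenced cells, 22.8%, at an adjusted p under 0.05: 1791 genes (11.8%) rose and 1674 genes (11%) fell. Among protein-coding genes, 1663 rose and 1407 fell of 12501. Of the called genes, 1200, or 7.9% of all genes tested, changed at least 2-fold, and the median log2 fold change of all genes was -0.01. Without replicate 3 of every group the count was 6927 (3641 higher and 3286 lower), and with the replicate number as a block it was 5501 (2859 higher and 2642 lower), which included all 3465 genes.

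**Figure D1:**
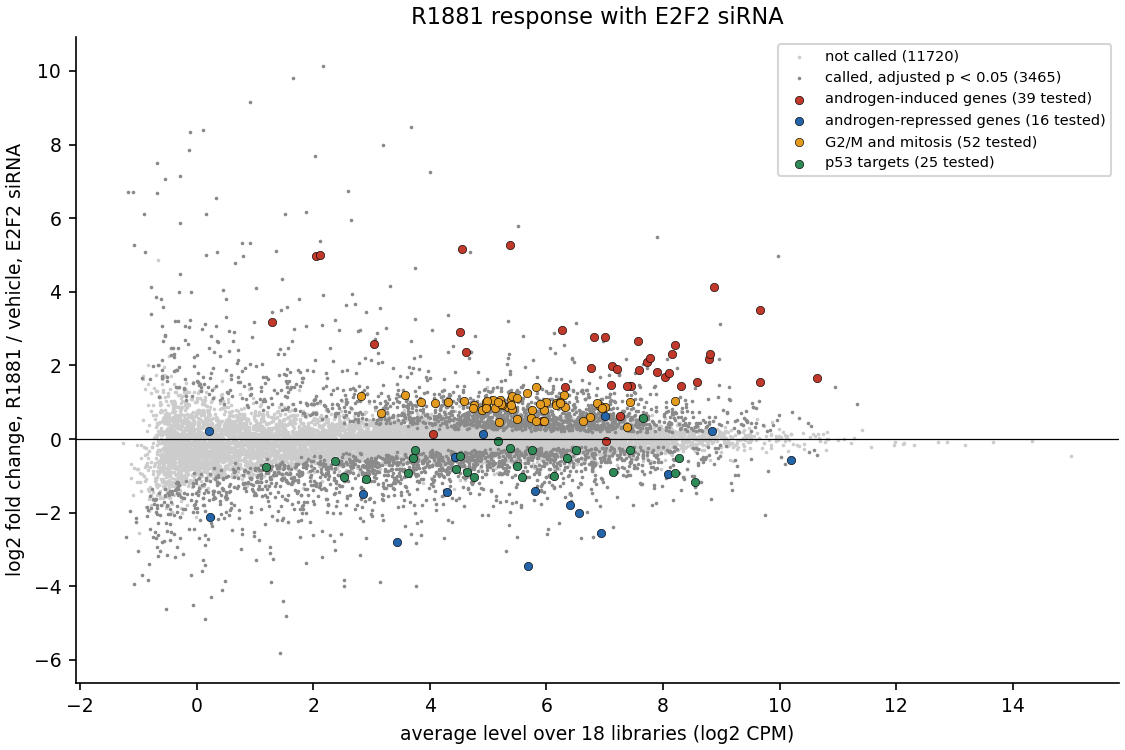
The log2 fold change of each of the 15185 genes tested (R1881 over vehicle, E2F2-silenced cells, vertical axis) is plotted against its average log2 CPM (horizontal axis), with called genes in darker grey and members of selected gene lists in colour. Fitted values reach further from 0 among rises than among falls, up to 10.13 for SLC38A4, whose vehicle libraries held 0 counts.

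The rises and falls described next are the 12 largest in each direction among called genes that have a name, do not overlap between groups and average at least 1 on the log2 CPM scale, so larger fold changes at lower levels are not among them. The strongest of these rises were of genes that were close to silent without androgen. SLC38A4, an amino acid transporter, had 12.6, 13.3 and 7.32 CPM with R1881 and 0 counts in all 3 vehicle libraries, so it was at least 122-fold higher, taking 3 counts over the vehicle group as the floor. SLC2A3, a glucose transporter, had 10.1, 10.2 and 5.99 CPM with R1881 and 0 counts with vehicle, at least 96.6-fold higher on the same floor. Both genes had their lowest R1881 level in replicate 3. Another 5 of the 12 genes had 1 to 3 counts over the vehicle group: CCDC141 (901 counts with R1881 and 2 with vehicle, ratio 416, 95% counting interval 115 to 3437), TUBA3D (640 and 2, ratio 295, interval 81.4 to 2443), LINC01297 (297 and 1, ratio 274, interval 48.8 to 10858), LAT2 (383 and 3, ratio 118, interval 40 to 574) and TTN, the giant sarcomere protein titin (249 and 3, ratio 76.6, interval 25.9 to 374). TUBA3D has a near-identical copy, TUBA3E, so its reads may be shared.

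Other large rises had more vehicle counts, although STEAP4 and TBX15 were still close to the floor with vehicle. STEAP4, a metalloreductase, had 37.6, 35.1 and 15.4 CPM with R1881 and 0.277, 0.0944 and 0.172 CPM with vehicle, and replicate 3 with R1881 was the lowest of its group. TBX15, a T-box transcription factor, had 15.1, 17.7 and 13.5 CPM with R1881 against 0.37, 0.0944 and 0.258 CPM with vehicle. CHRNA2, a nicotinic acetylcholine receptor subunit, had 88.2, 92.7 and 83.6 CPM with R1881 against 1.48, 1.32 and 1.98 CPM with vehicle, a 54.7-fold rise (log2 5.77 ± 0.19, adjusted p = 1.10e-11). In none of these genes did the groups overlap.

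The falls were led by IL1B, the inflammatory cytokine interleukin-1 beta. It had 0.507, 0.502 and 0.499 CPM with R1881 against 13.04, 16.4 and 13.8 CPM with vehicle, a 28.1-fold fall (log2 -4.81 ± 0.31, adjusted p = 1.39e-08). DAPK1, a death-associated kinase, had 1.61, 1.92 and 2.91 CPM with R1881 against 31.7, 35.8 and 35.1 CPM with vehicle, and PLD1, a phospholipase, had 1.35, 1.51 and 2.08 CPM against 27.3, 26.6 and 19.9 CPM. All libraries with R1881 were below all libraries with vehicle for these genes. CCDC80 (log2 -4.002 ± 0.33), FREM1 (-3.87 ± 0.36), CXorf36 (-3.84 ± 0.21), OPRK1 (-3.45 ± 0.14), the guanine nucleotide exchange factor VAV3 (-3.37 ± 0.30), KCNU1 (-3.28 ± 0.37), FAM131B (-3.25 ± 0.28) and the transcription factor MECOM (-3.20 ± 0.20) also fell, with adjusted p from 2.02e-09 to 6.29e-06. DAB1, an adaptor of reelin signalling, held 3 counts with R1881 and 65 with vehicle, 23.5-fold more with vehicle (95% counting interval 7.69 to 117).

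Secreted prostate proteins were the group with the highest rises. Of 12 kallikreins and secreted prostate proteins, 11 were tested and 10 rose, with none lower, against 22.8% of all genes called in either direction, and the list median log2 fold change was 3.13 beside -0.01 for all genes. KLK3, prostate-specific antigen (chr19:50854915-50860764, plus strand), had 1802, 1776 and 1595 CPM with R1881 and 53.9, 44.2 and 66.3 CPM with vehicle, a 31.4-fold rise (log2 4.97 ± 0.14, adjusted p = 2.20e-12). KLK2, its neighbour on chromosome 19 and the protease that activates it, had 350.1, 317 and 308 CPM with R1881 and 6.29, 5.94 and 9.39 CPM with vehicle, 44.9-fold higher (log2 5.49 ± 0.17, adjusted p = 4.34e-12). The lowest R1881 library lay far above the highest vehicle library for both.

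Both promoters are shown because these neighbouring genes rose together and hold the same match upstream of their start sites. The RefSeq promoter sequences (GRCh38.p14) cover the 250 bases before each start, chr19:50854665-50854914 for KLK3 and chr19:50873189-50873438 for KLK2, both on the plus strand. Capitals mark the match to a relaxed androgen response element, which is GNACA and GTNC with any 4 letters between them, searched on both strands. In KLK3 the match overlaps the half-site AGAACA.
KLK3: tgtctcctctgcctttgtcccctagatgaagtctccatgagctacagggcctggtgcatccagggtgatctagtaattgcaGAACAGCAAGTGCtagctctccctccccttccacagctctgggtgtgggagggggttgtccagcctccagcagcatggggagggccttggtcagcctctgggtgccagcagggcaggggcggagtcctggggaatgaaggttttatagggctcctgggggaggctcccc
KLK2: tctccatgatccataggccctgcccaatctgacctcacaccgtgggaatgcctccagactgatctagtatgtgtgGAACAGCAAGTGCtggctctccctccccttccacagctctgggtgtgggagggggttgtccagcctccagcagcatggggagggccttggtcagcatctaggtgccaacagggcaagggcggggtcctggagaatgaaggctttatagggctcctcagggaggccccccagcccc
The match, GAACAGCAAGTGC, lay at bases -169 to -157 from the KLK3 start and -175 to -163 from the KLK2 start. Of 27305 RefSeq promoters of the same length, 487 (1.78%) held the motif. So did 2 of the 8 promoters matched for the tested genes of this list. These 2 are KLK3 and KLK2, whose letters around the match are nearly the same, so they are not independent matches. Among the other androgen-induced genes described below, 1 of 29 matched promoters (3.45%) held it. A stricter form, with T as the last of the 4 free letters, was in 0 of 8 and 0 of 29, beside 0.352% of all promoters. A match is a description of the letters and not a measured binding site.

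The other secreted proteins differed widely in level. TMPRSS2, a membrane serine protease, had 1079, 1051 and 935 CPM with R1881 and 113, 115 and 122 CPM with vehicle (log2 3.13 ± 0.10, adjusted p = 4.63e-12). ADAM7, a metalloprotease-like protein of the male tract, had 12.6, 14.1 and 12.1 CPM with R1881 and 1.11, 0.849 and 0.603 CPM with vehicle (log2 3.92 ± 0.26), and AZGP1, zinc-alpha-2-glycoprotein, had 47.8, 53.1 and 46.0 CPM and 12.02, 13.4 and 15.6 CPM (log2 1.84 ± 0.14). Progastricsin (PGC) rose too, with 181 counts with R1881 against 2 with vehicle. ORM1, an acute-phase glycoprotein with a near-identical copy in ORM2, had 203 counts with R1881 and 0 with vehicle, at least 62.4-fold more on the floor of 3 counts. The member that did not pass, chosen here after its values were seen, was prostatic acid phosphatase (ACPP), with 114, 109.9 and 97.4 CPM with R1881 and 123, 120.5 and 120.4 CPM with vehicle (log2 -0.18 ± 0.07, adjusted p = 0.102, and 0.0269 with the replicate block).

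Among 40 other androgen-induced genes, 39 were tested, 36 rose and none fell, with a list median of 2.10, beside 11.8% higher and 11% lower over all genes. IGF1R, the receptor for insulin-like growth factors, had 212, 210.1 and 206 CPM with R1881 and 31.5, 30.6 and 29.5 CPM with vehicle, and it carried the smallest p of the list (log2 2.78 ± 0.07, adjusted p = 1.39e-12). FKBP5, a chaperone partner of steroid receptors, had 1036, 978 and 724 CPM with R1881 and 52.2, 51.6 and 52.5 CPM with vehicle (log2 4.13 ± 0.14, adjusted p = 1.10e-11). In both genes the groups were far apart, and replicate 3 was the lowest library with R1881. Coagulation factor F5 rose by log2 5.28 ± 0.23, the transcription factor MAF by 2.96 ± 0.14 and PMEPA1, a negative regulator of TGF-beta signalling, by 2.67 ± 0.11. TPD52 (log2 0.62 ± 0.31), MERTK (0.13 ± 0.13) and VAPA (-0.06 ± 0.24) did not pass the test, but TPD52 did with the replicate block (adjusted p = 1.59e-05).

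Genes that both androgens and glucocorticoids are known to regulate moved both ways. Of 12 tested, 6 rose and 2 fell (4 with the replicate block), with a median of 0.43, beside 11.8% higher and 11% lower over all genes. SGK1, a kinase of ion transport, had 23.8, 20.7 and 16.1 CPM with R1881 and 4.62, 4.91 and 4.57 CPM with vehicle (log2 2.11 ± 0.22, adjusted p = 3.47e-06), and ERRFI1, a feedback inhibitor of EGF receptor, had 145, 129 and 108 CPM and 43.6, 40.9 and 41.6 CPM (log2 1.598 ± 0.11, adjusted p = 4.17e-08). The circadian gene PER1 rose by log2 1.18 ± 0.19, ZBTB16 by 1.01 ± 0.16, CRISPLD2 by 0.79 ± 0.12 and GADD45B by 0.68 ± 0.13. Both that fell, named because the count is small, are classical glucocorticoid-induced genes: the phosphatase DUSP1 (log2 -0.63 ± 0.14, adjusted p = 0.00427) and TSC22D3, also called GILZ (log2 -0.42 ± 0.10, adjusted p = 0.00659).

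Androgen-repressed genes fell as a group. All 16 listed were tested, 12 fell and 1 rose, and the median was -1.43, beside 11% lower and 11.8% higher over all genes. OPRK1, the kappa opioid receptor, had 12.3, 14.1 and 18.2 CPM with R1881 and 172, 166 and 149.8 CPM with vehicle, a 10.9-fold fall (adjusted p = 8.51e-11). LRRN1, a leucine-rich neuronal membrane protein, had 31.3, 33.8 and 40.1 CPM with R1881 and 207, 209 and 207 CPM with vehicle (log2 -2.57 ± 0.09, adjusted p = 3.55e-11). The groups were separated in both genes. DDC, dopa decarboxylase, fell by log2 -2.001 ± 0.13 with 31.9, 38.5 and 34.2 CPM with R1881 against 143, 153 and 123 CPM with vehicle, and ACKR3, a chemokine scavenger receptor, by -1.79 ± 0.21. CAMK2N1, an inhibitor of calcium/calmodulin kinase, had 272, 317 and 314 CPM with R1881 and 577, 616 and 552 CPM with vehicle (log2 -0.95 ± 0.09, adjusted p = 8.55e-07). The exception in direction was TMEFF2, a membrane protein of prostate, with 177, 154 and 168 CPM with R1881 and 108, 102 and 116 CPM with vehicle (log2 0.62 ± 0.08, adjusted p = 3.67e-05).

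**Figure D2:**
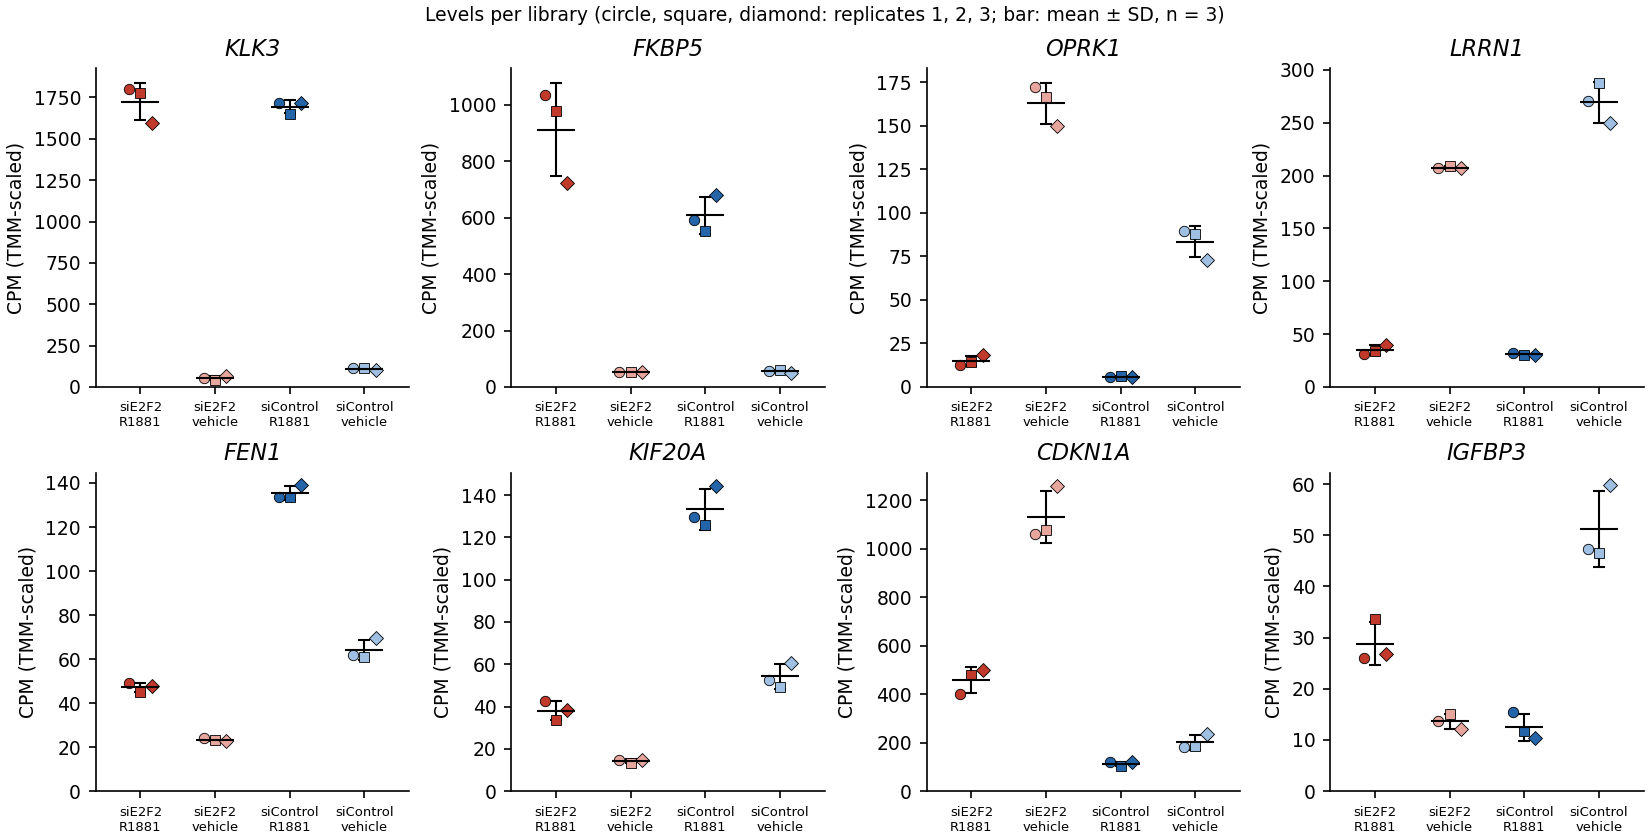
CPM in each library (points, linear axis from 0, n = 3 a group) for 8 genes, with the group mean and SD, in E2F2-silenced cells given R1881 or vehicle and in control-siRNA cells given R1881 or vehicle. KLK3 and FKBP5 were higher and OPRK1 and LRRN1 lower with R1881 under both pools, FEN1 and KIF20A were lower in E2F2-silenced cells, CDKN1A was higher in them, and IGFBP3 moved in opposite directions under the pools.

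The UGT2B enzymes, which attach glucuronic acid to androgens for clearance, were mostly lowered. Of 7 listed, 6 were tested, 5 fell and 1 rose, with a median of -1.49, beside 11% lower and 11.8% higher over all genes. UGT2B15 had 19.4, 20.8 and 18.7 CPM with R1881 and 127, 141 and 109 CPM with vehicle (log2 -2.67 ± 0.24, adjusted p = 4.34e-07), and UGT2B17 had 145, 170.5 and 129 CPM and 520.4, 571 and 439.9 CPM (log2 -1.78 ± 0.27, adjusted p = 1.10e-04). Neither gene's groups overlapped. UGT2B10 (log2 -1.19 ± 0.24) and UGT2B11 (-0.82 ± 0.18) also fell, UGT2B28 rose (log2 2.03 ± 0.36) with under 1 CPM in each vehicle library, and UGT2B4 fell at a low level (log2 -2.02 ± 0.69, adjusted p = 0.0457), a call that was lost when any of the 6 libraries was left out. These enzymes are close in sequence and how reads that match several of them were counted is not given in the sources used here.

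In a list of 15 genes that holds pioneer factors, cofactors and chaperones of steroid hormone signalling, 3 rose, 6 fell and 6 did not pass the test, with a median of -0.23. Over all genes, 11.8% rose and 11% fell. The p160 coactivators NCOA1 (log2 -0.57 ± 0.07), NCOA2 (-0.62 ± 0.07) and NCOA3 (-0.72 ± 0.15) all fell, while the corepressor NCOR1 (0.36 ± 0.07) and the epithelial transcription factor GRHL2 (0.46 ± 0.07) rose.

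Genes of androgen synthesis and interconversion did not move as a group: 11 of 16 were tested, 3 rose and 2 fell (5 and 3 with the replicate block), with a median of 0.05. The shares over all genes were 11.8% higher and 11% lower. CYP11A1, the side-chain cleavage enzyme, had 145 counts with R1881 and 3 with vehicle (ratio 44.6, 95% counting interval 15.0 to 219). SRD5A1, a steroid 5-alpha-reductase, had 53.2, 55.1 and 41.2 CPM with R1881 and 34.6, 33.0 and 27.6 CPM with vehicle (log2 0.65 ± 0.13, adjusted p = 0.00136), and HSD17B4 rose by 0.39 ± 0.11, a call lost when either of 2 libraries was left out. AKR1C3, which makes testosterone from androstenedione, had 0.423, 0.585 and 0.582 CPM with R1881 and 2.40, 2.55 and 2.07 CPM with vehicle (log2 -2.12 ± 0.28, adjusted p = 2.86e-05), and SRD5A3, which acts in protein glycosylation, fell by log2 -0.52 ± 0.13. Of 4 STEAP family members tested, STEAP4 (above) and STEAP3 (log2 0.63 ± 0.18) rose, the second losing its call without either of 2 libraries.

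Lipid synthesis genes rose, and neither list for it had a fall, against 1 and 2 falls with the replicate block. For cholesterol synthesis, 15 of 22 genes rose with a median of 0.78, and for fatty acid synthesis, elongation and activation 11 of 18 rose with a median of 0.54. The shares over all genes were 11.8% higher and 11% lower. EBP, a sterol isomerase, had 74.3, 72.8 and 69.8 CPM with R1881 and 27.4, 24.9 and 32.0 CPM with vehicle (log2 1.36 ± 0.13, adjusted p = 1.28e-06). It rose more than 2-fold without overlap between groups. SQLE, squalene epoxidase (log2 0.83 ± 0.08), FDFT1, squalene synthase (0.86 ± 0.09), FDPS, farnesyl diphosphate synthase (0.81 ± 0.09), and INSIG1, which retains the sterol sensor in the ER (1.14 ± 0.14), rose by similar amounts. ACACA, acetyl-CoA carboxylase, had 1019, 1021 and 981 CPM with R1881 and 560.3, 563 and 557 CPM with vehicle (log2 0.85 ± 0.06, adjusted p = 3.64e-08), and ACLY, ATP citrate lyase, rose by 0.87 ± 0.08. The desaturases FADS1 (0.93 ± 0.08) and FADS2 (1.03 ± 0.13) rose about as much, and the elongases ELOVL5 (2.18 ± 0.22) and ELOVL2 (3.45 ± 0.35) more, ELOVL2 with under 1 CPM in every vehicle library.

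Genes of the secretory machinery rose. In the list for ER folding and the unfolded protein response, 22 of 23 genes were tested, 19 rose, none fell and the median was 0.86. For this list and the next, the shares over all genes were 11.8% higher and 11% lower. SEC24D, a coat protein of vesicles leaving the ER, had 109, 117 and 98.6 CPM with R1881 and 42.8, 47.2 and 46.2 CPM with vehicle (log2 1.26 ± 0.08, adjusted p = 1.73e-08). ERN1, the ER stress sensor IRE1, had 116, 118 and 107 CPM with R1881 and 46.0, 46.1 and 48.9 CPM with vehicle (log2 1.27 ± 0.09, adjusted p = 4.24e-08). No library of the R1881 group reached down to the vehicle group in either gene. The membrane-bound factors CREB3L2 (1.03 ± 0.07) and CREB3L4 (1.26 ± 0.11), the ER-associated degradation factor HERPUD1 (1.01 ± 0.09) and the disulfide isomerase PDIA4 (0.95 ± 0.09) also rose. For hexosamine and nucleotide sugar synthesis, which feeds glycosylation, 7 of 10 genes rose and 1 fell, with a median of 0.65. NANS, sialic acid synthase, led with 133, 139 and 135 CPM with R1881 and 57.1, 55.7 and 62.2 CPM with vehicle (log2 1.22 ± 0.11, adjusted p = 5.46e-07), followed by PGM3 (1.13 ± 0.21), GMPPA (0.89 ± 0.14), PMM2 (0.68 ± 0.11) and GMPPB (0.53 ± 0.11). The fall, of the O-GlcNAc transferase OGT (log2 -0.35 ± 0.12, adjusted p = 0.0438), was lost in every fit that left out 1 of the 6 libraries.

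The lists of nutrient genes are set beside all genes, of which 11.8% rose and 11% fell. Among them, 7 of 16 amino acid transporters rose and 1 fell (3 with the replicate block, median 0.35). For glycolysis and glucose transport, 9 of 21 tested genes rose and 1 fell (median 0.30). SLC43A1, a transporter of large neutral amino acids, had 41.3, 34.5 and 45.0 CPM with R1881 and 8.78, 6.70 and 8.70 CPM with vehicle (log2 2.32 ± 0.18, adjusted p = 7.52e-08). SLC7A5, another transporter of that class, went the other way with 4.39, 5.52 and 6.91 CPM with R1881 and 18.03, 20.004 and 22.2 CPM with vehicle (log2 -1.84 ± 0.26, adjusted p = 6.21e-05). Glutamate transporter SLC1A2 (3.06 ± 0.32), glutamine transporter SLC1A5 (0.80 ± 0.14) and arginine transporter SLC7A1 (0.42 ± 0.08) rose. In glucose use, the transporter SLC2A12 (1.34 ± 0.15), PFKFB2, which makes the activator of phosphofructokinase (1.04 ± 0.14), the lactate exporter SLC16A3 (1.07 ± 0.21) and HK2, hexokinase 2 (0.76 ± 0.10), rose, while PFKM, the muscle phosphofructokinase, fell (-0.37 ± 0.07). Of 9 polyamine genes 3 rose: ODC1, ornithine decarboxylase, with 566, 482 and 417 CPM with R1881 and 226, 235 and 224 CPM with vehicle (log2 1.09 ± 0.11, adjusted p = 2.61e-06), SAT1 (1.08 ± 0.09) and SRM (0.63 ± 0.22, adjusted p = 0.0493), the last of which kept its call in 1 of 6 fits without a library.

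**Figure D3:**
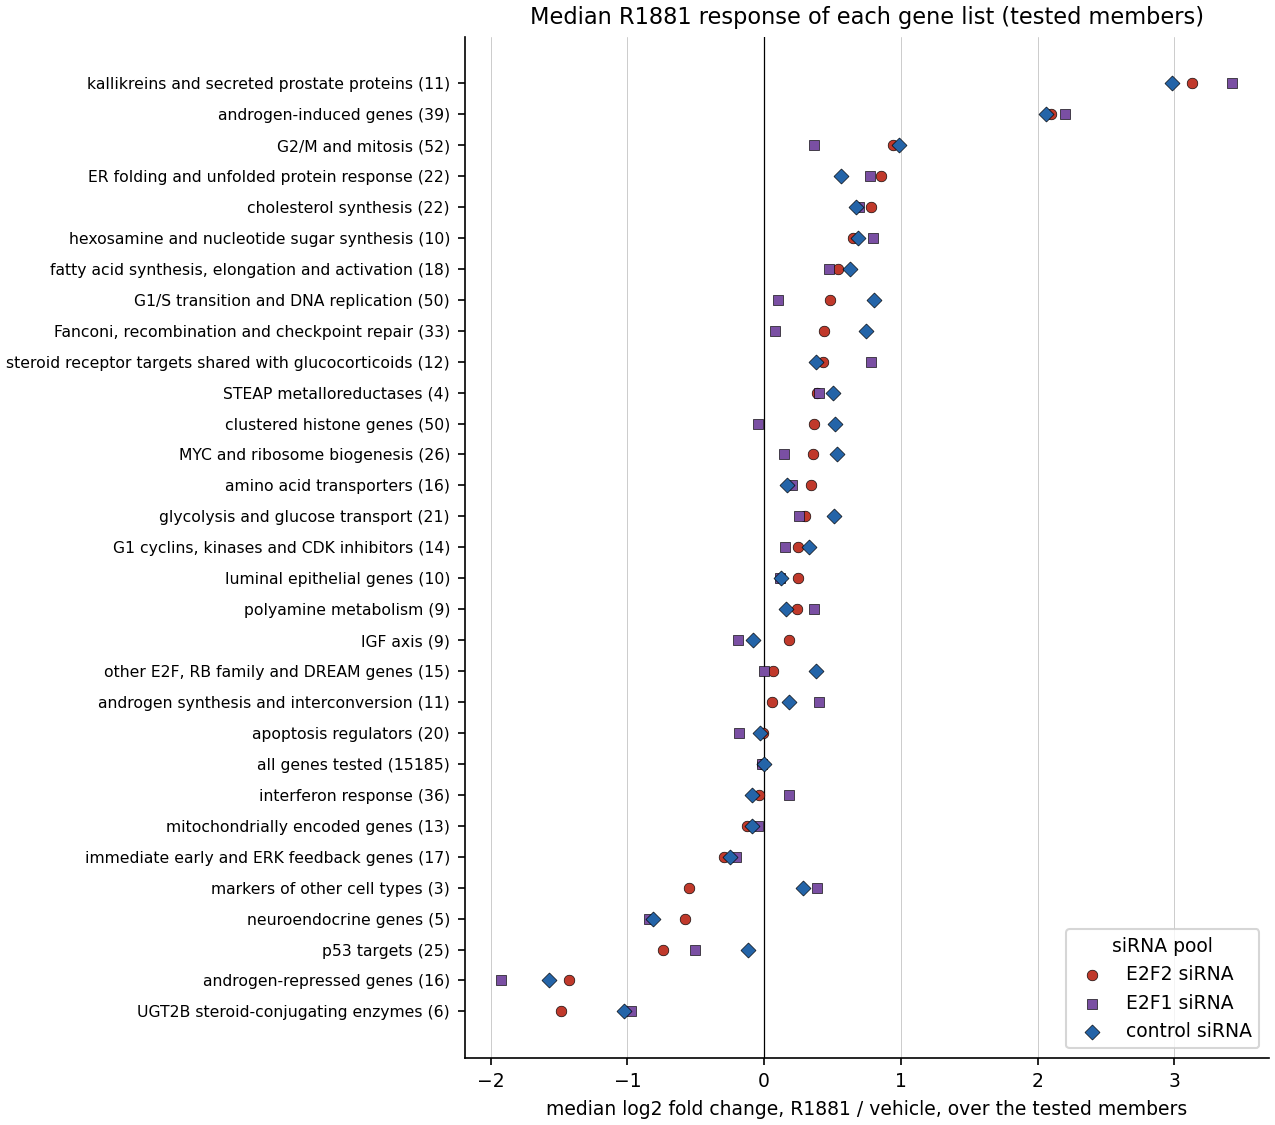
Median log2 fold change (R1881 over vehicle) of the tested members of the gene lists described here, for E2F2-silenced, E2F1-silenced and control-siRNA cells. The list with pioneer factors and cofactors is not drawn. Secreted prostate proteins (3.13) and androgen-induced genes (2.10) lie furthest to the right and the UGT2B enzymes (-1.49) and androgen-repressed genes (-1.43) furthest to the left in E2F2-silenced cells, while the G1/S list has medians of 0.48 with E2F2 siRNA, 0.10 with E2F1 siRNA and 0.80 with control siRNA.

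Cell cycle genes rose with R1881 although E2F2 was depleted. Of 52 genes for G2/M and mitosis, all tested, 40 rose and none fell, with a median of 0.94, and in all 52 every library with R1881 was above every library with vehicle, against 21.8% of all genes. Of 50 genes for the G1/S transition and DNA replication, all tested, 29 rose and 1 fell, with a median of 0.48. The shares called over all genes were 11.8% higher and 11% lower. Leaving out a library left 32 to 36 of the mitotic rises and 24 to 27 of the G1/S rises.

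Replication genes rose by up to log2 1.16. FEN1, the flap endonuclease that processes Okazaki fragments (chr11:61792637-61797244), had 48.9, 45.0 and 47.8 CPM with R1881 and 24.0, 23.1 and 22.7 CPM with vehicle (log2 1.02 ± 0.08, adjusted p = 1.54e-07). CDC25A, the phosphatase that activates cyclin-dependent kinases, had 28.1, 28.6 and 26.1 CPM with R1881 and 13.04, 12.8 and 11.3 CPM with vehicle (log2 1.16 ± 0.10, adjusted p = 3.95e-07), and CDC6, which loads the replicative helicase, had 37.2, 30.9 and 35.5 CPM and 16.1, 14.9 and 17.1 CPM (log2 1.11 ± 0.10, adjusted p = 3.71e-07). None of these overlapped between groups. MCM10 (0.90 ± 0.10), the clamp loader subunit RFC5 (0.72 ± 0.08) and thymidylate synthase TYMS (0.72 ± 0.09) rose too. CCNE2, cyclin E2, was the single fall, with 11.1, 11.5 and 9.24 CPM with R1881 and 23.5, 25.3 and 16.6 CPM with vehicle (log2 -1.04 ± 0.32, adjusted p = 0.0271), and lost its call in at least 1 fit without a library.

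Mitotic genes rose more as a list, with a median of 0.94 beside 0.48 for G1/S genes. KIF20A, a kinesin of cytokinesis (chr5:138178719-138187715), had 42.5, 33.5 and 38.4 CPM with R1881 and 14.6, 13.2 and 14.8 CPM with vehicle (log2 1.42 ± 0.13, adjusted p = 6.20e-07). KIF4A, a chromosome-associated kinesin, had 26.9, 25.0 and 26.9 CPM with R1881 and 11.7, 12.8 and 12.7 CPM with vehicle (log2 1.08 ± 0.10, adjusted p = 5.42e-07). RACGAP1 of the central spindle rose by log2 0.97 ± 0.09, the spindle assembly factor TPX2 by 0.89 ± 0.09, the chromosomal passenger protein BIRC5 (survivin) by 0.93 ± 0.10 and the kinase AURKA by 1.05 ± 0.11. The lowest library with R1881 was above the highest with vehicle for each.

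Promoters of 6 of the rising genes are shown because their letters carry the elements by which these lists are known. Each line gives 60 bases directly upstream of the RefSeq start (GRCh38.p14), read 5′ to 3′ in the gene's direction: chr3:48188418-48188477 (minus strand) for CDC25A, chr18:657593-657652 (plus) for TYMS and chr16:85688955-85689014 (minus) for the helicase subunit GINS2, with the E2F site in capitals.
CDC25A: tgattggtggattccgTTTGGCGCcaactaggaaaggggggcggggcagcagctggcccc
TYMS: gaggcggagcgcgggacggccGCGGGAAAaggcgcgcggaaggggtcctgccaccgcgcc
GINS2: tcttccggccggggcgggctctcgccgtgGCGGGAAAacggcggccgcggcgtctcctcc
An E2F site was any of TTTCCCGC, TTTGGCGC, TTTCGCGC and TTTGCCGC on either strand, counted as 1 motif. The mitotic promoters are chrX:70290044-70290103 (plus) for KIF4A, chr15:90994536-90994595 (minus) for PRC1, a microtubule bundler of the midzone, and chr1:37692456-37692515 (plus) for CDCA8, a chromosomal passenger protein, with the CHR letters TTTGAA in capitals.
KIF4A: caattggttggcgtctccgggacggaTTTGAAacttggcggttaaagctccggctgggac
PRC1: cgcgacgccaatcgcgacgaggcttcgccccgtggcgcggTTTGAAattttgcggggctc
CDCA8: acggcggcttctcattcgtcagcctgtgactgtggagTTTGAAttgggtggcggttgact
In the 250 bases before the start, 16 of 43 matched G1/S promoters (37.2%) held an E2F site, beside 2.75% of 27305 promoters. The share was 34.8% among those that rose (8 of 23) and 40% among the others (8 of 20). The CHR letters were in 23 of 44 matched G2/M promoters (52.3%), beside 13.9% of all promoters: in 16 of 33 that rose (48.5%) and in 7 of 11 that did not pass the test (63.6%).

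The levels reached were low. On the plot of list levels by library, the G1/S genes of E2F2-silenced cells had a median log2 level of 0.54, 0.32 and 0.59 with R1881, relative to their mean with vehicle. Control-siRNA cells stood at 1.98, 1.94 and 1.91 with R1881 and at 1.11, 1.17 and 1.16 with vehicle. R1881 left E2F2-silenced cells below the level that control cells had without androgen: 47 of 50 G1/S genes and 52 of 52 G2/M genes had a lower mean in E2F2-silenced cells with R1881 than in control cells with vehicle. In 31 and 29 of these genes all 3 libraries lay below all 3, against 20.2% of all genes. FEN1, with 48.9, 45.0 and 47.8 CPM in E2F2-silenced cells given R1881, had 61.8, 61.1 and 69.5 CPM in control cells given vehicle, and KIF20A had 42.5, 33.5 and 38.4 CPM against 52.8, 49.3 and 60.7 CPM. The same held for the G2/M list level, at 1.04, 0.74 and 0.85 with R1881 in E2F2-silenced cells and 1.72, 1.74 and 1.24 in control cells with vehicle. The androgen-induced list gave the reverse, with 38 of 39 genes higher in all E2F2-silenced libraries with R1881 than in all control libraries with vehicle, against 20.3% of all genes.

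**Figure D4:**
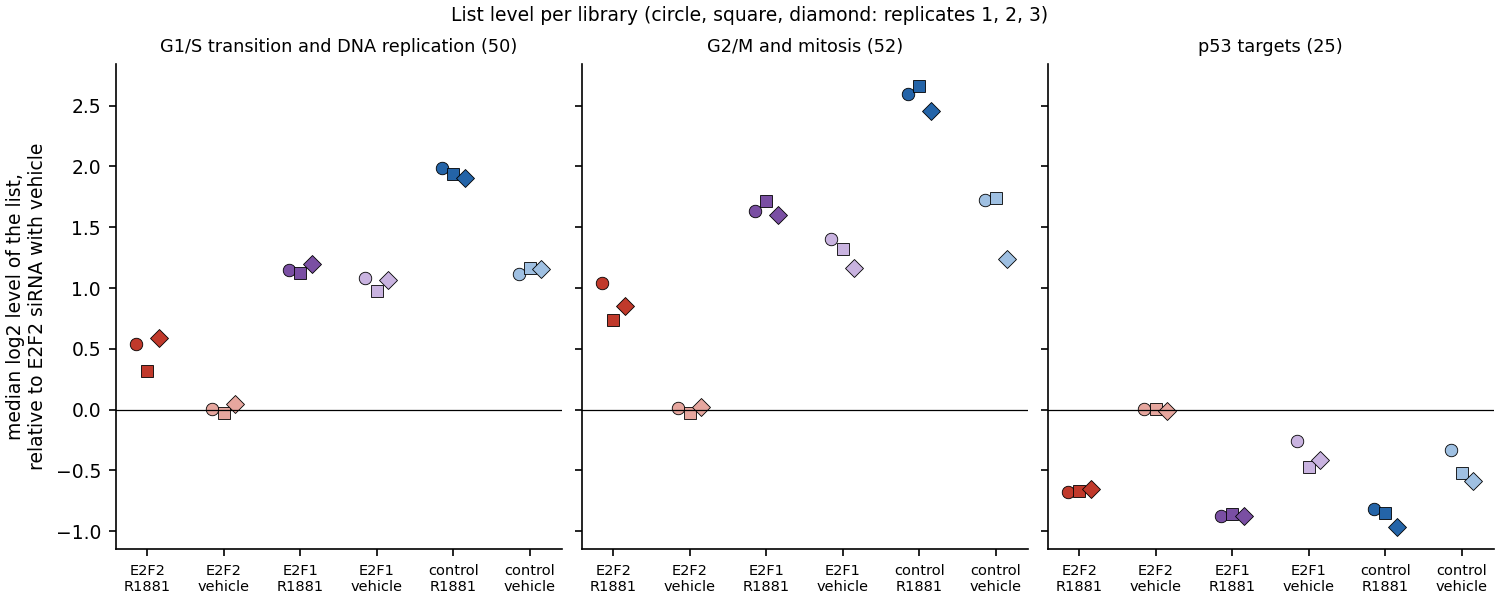
Median log2 level of the tested G1/S, G2/M and p53 target genes in each library (points, n = 3 a group), relative to the mean of E2F2-silenced cells given vehicle, in the 6 groups of the study. For G1/S genes the E2F2-silenced libraries with R1881 (0.32 to 0.59) lie below all libraries of the E2F1 and control pools, and for p53 targets they lie at -0.68 to -0.65.

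Other growth lists had lower shares of calls than the mitotic list. Of 15 other E2F, RB family and DREAM genes, 2 rose and 1 fell (median 0.06), a share near the 22.8% of all genes called and so not a result about the list: the repressor E2Fs E2F7 (0.83 ± 0.18) and E2F8 (0.91 ± 0.18) rose, and RBL2, the pocket protein p130 of quiescent cells, fell with 244, 257 and 226 CPM with R1881 and 391, 400.2 and 345 CPM with vehicle (log2 -0.64 ± 0.16, adjusted p = 0.00656). Among 14 tested G1 regulators, 5 rose and 2 fell, among them CKS2 (0.83 ± 0.11), CKS1B (0.63 ± 0.14), CDK4 (0.34 ± 0.09) and SKP2 (0.50 ± 0.13) upward and the inhibitors CDKN1A and CDKN2B (-1.04 ± 0.19) downward. Of 33 repair genes, 10 rose and 1 fell (median 0.44), and 15 rose and 3 fell with the replicate block. UBE2T (0.77 ± 0.09), PARP1 (0.44 ± 0.07), FANCI (0.71 ± 0.15) and RAD54L (0.97 ± 0.22) were among the rises, and the mismatch repair gene PMS2 fell with 85.4, 98.4 and 102 CPM with R1881 and 266, 268 and 254 CPM with vehicle (log2 -1.46 ± 0.09, adjusted p = 4.81e-09). MYC had 104, 97.0 and 123 CPM with R1881 and 78.1, 72.1 and 105 CPM with vehicle, groups that overlapped (log2 0.35 ± 0.20, adjusted p = 0.239), and passed with the replicate block (adjusted p = 0.005995) and without replicate 3 of every group. Of 26 genes for MYC and ribosome biogenesis, 10 rose and 1 fell (median 0.36), 18 rose with the block, and NOP16 (0.81 ± 0.11), NOLC1 (0.49 ± 0.07), RRS1 (0.56 ± 0.09), nucleolin NCL (0.37 ± 0.07), fibrillarin FBL (0.39 ± 0.09) and NOP56 (0.38 ± 0.09) carried the smallest p. The fall was of WDR12 (adjusted p = 0.0479) and was lost whenever a library was left out.

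Clustered histone genes, whose transcripts lack the long poly(A) tails of other mRNAs, gave 10 rises and 1 fall among 50 tested of 89 (median 0.36). Together the calls are near the 22.8% of all genes called. By direction, 41 of the 50 fold changes were positive, beside 7362 of 15185 genes. HIST1H1B had 62.0, 53.2 and 74.4 CPM with R1881 and 33.4, 30.01 and 38.2 CPM with vehicle (log2 0.90 ± 0.16, adjusted p = 5.10e-04), without overlap, and HIST1H2BM rose by 0.88 ± 0.18. The count of rises ran between 2 and 12 when single libraries were left out. It was 28 with the replicate block, where 5501 of 15185 genes were called in either direction. Near-identical copies make single histone genes uncertain.

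Targets of p53 fell. Of 26 listed, 25 were tested, 16 fell and 1 rose, with a median of -0.74, beside 11% lower and 11.8% higher over all genes. In 19 of the 25 every library with R1881 was below every library with vehicle, against 21.4% of all genes. CDKN1A, the kinase inhibitor p21 (chr6:36676460-36687339), had 399, 480.1 and 498 CPM with R1881 and 1060.2, 1075 and 1256 CPM with vehicle, a 2.46-fold fall (log2 -1.30 ± 0.12, adjusted p = 4.70e-07). Both groups were above those of control-siRNA cells, at 118, 104 and 119 CPM with R1881 and 182, 185 and 237 CPM with vehicle. BTG2, an antiproliferative factor, had 39.4, 40.4 and 50.8 CPM with R1881 and 86.4, 87.3 and 88.5 CPM with vehicle (log2 -1.01 ± 0.10, adjusted p = 9.45e-07). BBC3, the pro-apoptotic protein PUMA (-1.03 ± 0.16), SPATA18 (-0.93 ± 0.15), the damage-binding protein DDB2 (-0.89 ± 0.14) and sestrin SESN2 (-1.02 ± 0.18) fell as well. TNFRSF10B, the death receptor DR5, rose to 302, 312 and 259 CPM with R1881, against 198, 191 and 197 CPM with vehicle (log2 0.57 ± 0.07, adjusted p = 2.36e-05).

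Apoptosis, interferon and immediate early lists had calls in both directions, beside 22.8% of all genes called. Of 20 apoptosis regulators, 2 rose and 3 fell (6 with the replicate block): BMF, a BH3-only protein, had 25.6, 29.3 and 32.6 CPM with R1881 and 103, 92.7 and 105 CPM with vehicle (log2 -1.78 ± 0.15, adjusted p = 2.21e-07), BCL2L1 (0.48 ± 0.11) and PMAIP1 (1.02 ± 0.24) rose, and CASP2 (-0.27 ± 0.07) and BCL2L11 (-0.28 ± 0.09) fell slightly, both losing the call in some fits without a library. Of 36 interferon response genes tested, 3 rose and 1 fell (median -0.04), a lower share than over all genes. IRF1 fell with 3.80, 5.35 and 5.16 CPM with R1881 and 12.1, 12.1 and 12.4 CPM with vehicle (log2 -1.35 ± 0.19, adjusted p = 4.60e-05), whereas at most 1 of the rises, of HERC5, OAS3 and HERC6, was left without any 1 library. Among 17 tested immediate early and ERK feedback genes, 5 fell and 2 rose (median -0.29), a higher share than over all genes. EGR1 had 2.28, 2.09 and 1.83 CPM with R1881 and 5.46, 6.13 and 6.55 CPM with vehicle (log2 -1.54 ± 0.34, adjusted p = 0.00335), FOS fell by log2 -1.61 ± 0.22 and SPRY4, an inhibitor of receptor tyrosine kinase signalling, by -2.01 ± 0.26. The phosphatase DUSP4 rose by 1.26 ± 0.15 (adjusted p = 1.08e-05).

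The insulin-like growth factor axis changed at several steps. Of 12 genes listed, 9 were tested, 4 rose and 1 fell, besides IGF1R in the androgen-induced list, where 11.8% of all genes rose and 11% fell. The ligand IGF1 was low, with 1.44, 0.92 and 1.58 CPM with R1881 and 0, 0.377 and 0.345 CPM with vehicle (log2 2.39 ± 0.55, adjusted p = 0.00454). The adaptor IRS2 had 15.1, 15.8 and 15.1 CPM with R1881 and 2.68, 3.40 and 4.31 CPM with vehicle (log2 2.14 ± 0.23, adjusted p = 4.26e-06), and IRS1 rose by 1.12 ± 0.25. GRB10, an adaptor that inhibits the receptor, fell with 181, 180.5 and 205 CPM with R1881 against 594, 567 and 582 CPM with vehicle (log2 -1.62 ± 0.07, adjusted p = 2.26e-10). IGFBP3, the main binding protein of IGF in serum, rose and is described with the differences between pools.

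Lists of cell identity markers held calls as well, beside 22.8% of all genes called. The 11 luminal epithelial genes summed to 2716 to 2943 CPM with R1881 and 2073 to 2381 CPM with vehicle. Of 10 tested, 3 rose and none fell (5 and 1 with the replicate block): KRT18 had 639, 642 and 550.5 CPM with R1881 and 354, 364 and 413 CPM with vehicle (log2 0.69 ± 0.14, adjusted p = 0.00164), KRT19 rose by 1.33 ± 0.21 and CLDN3 by 1.02 ± 0.28. Of 12 neuroendocrine genes, 5 were tested and 3 fell: ENO2 (-0.58 ± 0.16), NTS (-1.83 ± 0.52) and SYT1 (-1.59 ± 0.46), each call being lost in 2 or 3 fits without a library, and CHGA and INSM1 were at 0. The 12 neuroendocrine genes summed to 40.02 to 46.1 CPM with R1881 and 60.1 to 66.0 CPM with vehicle. These sums did not overlap between R1881 and vehicle for either list. The 15 markers of other cell types summed to 42.7 to 49.9 CPM with R1881 and 72.3 to 83.3 CPM with vehicle, nearly all of it from VWF, an endothelial clotting factor, with 21.0, 24.4 and 23.9 CPM with R1881 and 46.0, 43.1 and 45.6 CPM with vehicle (log2 -0.96 ± 0.15, adjusted p = 1.44e-04), and COL1A1, with 18.9, 20.2 and 23.5 CPM and 26.1, 28.6 and 37.0 CPM. That sum did not overlap between the groups either. The basal keratin KRT14 had 80 counts with R1881 and 2 with vehicle (ratio 36.9, 95% counting interval 9.89 to 310). None of the 13 mitochondrially encoded genes passed the test (median -0.13), while MT-ATP6, with 3001, 2789 and 3391 CPM with R1881 and 3244, 3464 and 3868 CPM with vehicle, passed with the replicate block (log2 -0.20, adjusted p = 0.0289).

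The response to R1881 was then set against that of control-siRNA cells, by the difference between the 2 log2 fold changes. That difference passed the test for 135 genes, 0.889% of those tested: 85 (0.56%) had a more positive response in E2F2-silenced cells and 50 (0.329%) a more negative one. Of the 135, 77 were called in both responses, 59 of them in the same direction and 18 in opposite directions, 35 were called with E2F2 siRNA only and 23 with control siRNA only. The count depends on the fit: 658 with the replicate block, 317 by DESeq2, 1767 without replicate 3, 40 in a fit of only the 4 groups compared, and 53 to 208 when single libraries were left out. In control-siRNA cells 4105 genes (27%) were called.

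**Figure D5:**
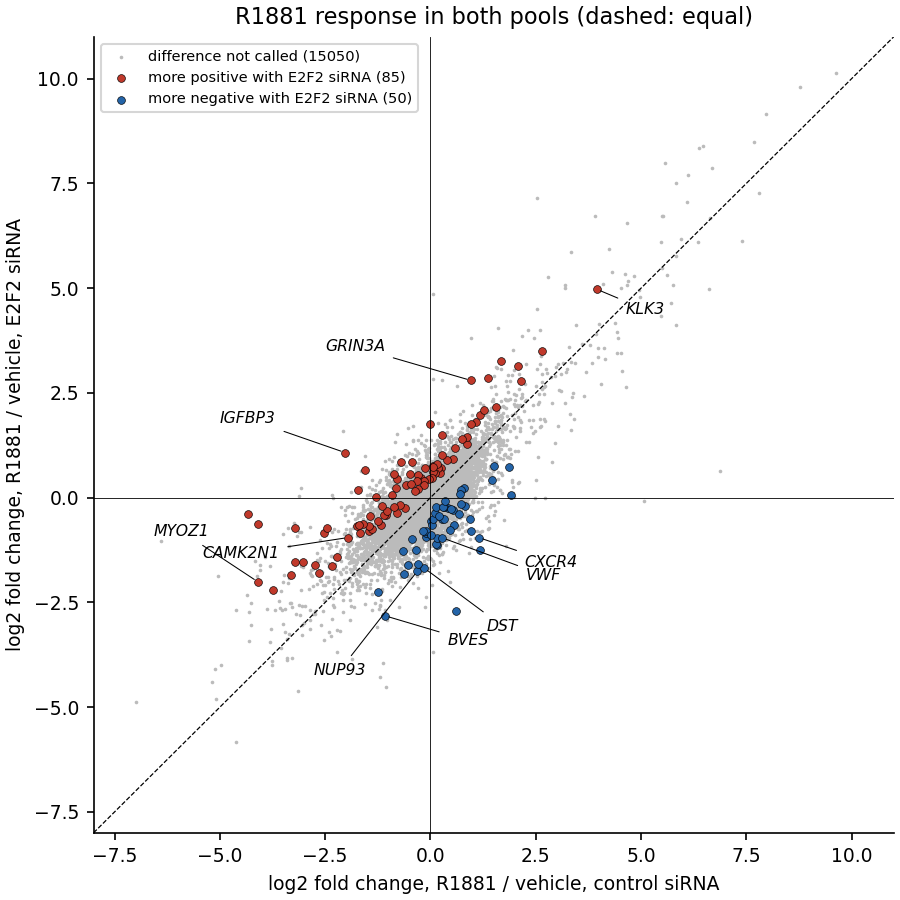
Log2 fold change to R1881 in E2F2-silenced cells (vertical axis) against that in control-siRNA cells (horizontal axis) for each gene tested, with the 135 genes whose difference passed the test coloured and the line of equal response dashed. IGFBP3, GRIN3A and KLK3 lie above the line, and CXCR4, VWF, DST, BVES and NUP93 below it.

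Among the genes named by rule, IGFBP3 had the largest difference. In E2F2-silenced cells it had 26.03, 33.7 and 26.7 CPM with R1881 and 13.8, 15.1 and 12.1 CPM with vehicle, a rise of log2 1.08 ± 0.17 (adjusted p = 1.94e-04). Control-siRNA cells had 15.4, 11.7 and 10.4 CPM with R1881 and 47.3, 46.6 and 59.8 CPM with vehicle, a fall of log2 -2.03 ± 0.17 (adjusted p = 2.87e-07). The groups were separated under both pools and in opposite directions, and the difference was 3.11 ± 0.24 (adjusted p = 8.60e-06). GRIN3A, a glutamate receptor subunit, had 28.1, 29.5 and 31.7 CPM with R1881 and 3.98, 4.53 and 4.31 CPM with vehicle in E2F2-silenced cells, against 38.6, 35.0 and 33.8 CPM and 18.03, 19.5 and 17.7 CPM in control cells. The levels with R1881 were close, and the larger response with E2F2 siRNA (difference 1.84 ± 0.14, adjusted p = 8.60e-06) came with a lower vehicle level.

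Androgen targets named above were not uniform in this respect. KLK3 reached similar levels with R1881, 1802, 1776 and 1595 CPM in E2F2-silenced cells and 1717, 1650.3 and 1717 CPM in control cells, but its vehicle level was 53.9, 44.2 and 66.3 CPM against 115, 113 and 103 CPM. Its response was larger by log2 1.03 ± 0.17 (adjusted p = 0.00813), while that of KLK2 differed by -0.01 ± 0.21 (adjusted p = 0.996). IGF1R had 226, 212 and 236 CPM with R1881 and 49.96, 47.7 and 53.5 CPM with vehicle in control cells, and a difference of 0.62 ± 0.10 (adjusted p = 0.00518). CAMK2N1 fell in control cells to 102, 89.4 and 83.9 CPM with R1881, against 356, 361 and 348 CPM with vehicle, a stronger fall than in E2F2-silenced cells (difference 1.001 ± 0.13, adjusted p = 0.00112). Chosen after its values were seen, PEG3 from the androgen-repressed list had 671, 705 and 741 CPM with R1881 and 630.1, 616 and 562 CPM with vehicle in E2F2-silenced cells, against 412, 406 and 343 CPM and 725, 720.0 and 615 CPM in control cells (difference 1.05 ± 0.13, adjusted p = 0.00116). GRB10 also fell less with E2F2 siRNA (difference 0.72 ± 0.10, adjusted p = 0.00232). HERPUD1 rose more with E2F2 siRNA (0.74 ± 0.13, adjusted p = 0.0137) and HK2 less (-0.75 ± 0.14, adjusted p = 0.0198), calls held in 9 and 7 of the 12 fits. KLK3, IGF1R, CAMK2N1, PEG3, GRB10 and IGFBP3 kept the call in all 12 such fits.

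Of the 50 genes with a more negative response, 38 fell in E2F2-silenced cells. CXCR4, a chemokine receptor, had 11.7, 11.1 and 11.8 CPM with R1881 and 19.9, 23.9 and 23.4 CPM with vehicle in E2F2-silenced cells, against 1.74, 1.71 and 2.25 CPM and 0.767, 0.623 and 1.13 CPM in control cells (difference -2.10 ± 0.29, adjusted p = 0.00215). NUP93, a nuclear pore protein, had 128, 133 and 157 CPM with R1881 and 439, 477 and 486 CPM with vehicle, against 203, 194 and 194 CPM and 235, 229.8 and 267 CPM (difference -1.44 ± 0.12, adjusted p = 1.83e-05). DST, the cytoskeletal linker dystonin, had 76.9, 74.8 and 99.9 CPM with R1881 and 272, 273 and 261 CPM with vehicle, against 43.0, 48.6 and 45.9 CPM and 57.8, 53.5 and 41.2 CPM (difference -1.53 ± 0.18, adjusted p = 4.65e-04). In all 3 genes the highest of the 4 groups was E2F2-silenced cells given vehicle. VWF showed the same order (difference -1.24 ± 0.21, adjusted p = 0.0104). Of the p53 targets, AEN, a nuclease named after its values were seen, had 51.4, 50.02 and 51.2 CPM with R1881 and 59.8, 64.1 and 63.3 CPM with vehicle, against 64.6, 60.7 and 62.2 CPM and 41.2, 40.3 and 47.4 CPM (difference -0.84 ± 0.13, adjusted p = 0.00579), and DDB2 differed by -0.91 ± 0.20 (adjusted p = 0.0481), held in 2 of 12 fits without a library.

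For the cell cycle lists the difference from control-siRNA cells passed the test in few genes. In control-siRNA cells 43 of 50 G1/S genes rose (median 0.80) and 45 of 52 G2/M genes rose (median 0.99), against 13.8% of all genes. The difference passed for 1 G1/S gene and for no G2/M gene, and with the replicate block it was negative and passed for 4 and 3 genes. With the block 658 of 15185 genes passed in either direction, the background for each block count in this paragraph that is set against control siRNA. Pairing libraries by replicate number, the median G1/S response was 0.47, 0.40 and 0.56 with E2F2 siRNA and 0.82, 0.74 and 0.88 with control siRNA, lower with E2F2 siRNA in each of the 3 replicates. The difference was below 0 for 44 of 50 G1/S genes (median -0.21), beside 50.7% of all genes. Of 52 G2/M genes 36 were below 0, and the paired medians were 1.004, 0.81 and 0.91 with E2F2 siRNA and 0.88, 0.92 and 1.27 with control siRNA, which do not keep 1 order. The G2/M list level of control cells with vehicle was 1.24 in replicate 3, against 1.72 and 1.74 in replicates 1 and 2. Of 33 repair genes 30 were below 0 (median -0.29), none passed, and 4 passed with the block. MCM6, the G1/S gene that passed, a subunit of the replicative helicase, had 78.1, 76.1 and 80.9 CPM with R1881 and 74.2, 77.4 and 70.7 CPM with vehicle in E2F2-silenced cells, against 138, 145 and 129.9 CPM and 89.2, 90.8 and 73.1 CPM in control cells (difference -0.62 ± 0.12, adjusted p = 0.0231), and held the call in 6 of 12 fits without a library. FEN1 differed by -0.06 ± 0.11 (adjusted p = 0.962) and KIF20A by 0.13 ± 0.18 (adjusted p = 0.928), and a p above the threshold does not show that the responses were equal. For p53 targets the medians were -0.74 with E2F2 siRNA and -0.12 with control siRNA, where 8 fell and 2 rose, and the difference was negative and passed for 2 of them, 7 with the replicate block. E2F1-silenced cells had a p53 target median of -0.50, with 11 falls and 1 rise among 25. The difference from E2F1-silenced cells passed for none of these genes, and with the block 1 positive and 3 negative differences passed.

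Against E2F1-silenced cells the difference in response passed for 250 genes, 1.65% of those tested, 119 positive (0.784%) and 131 negative (0.863%). E2F1-silenced cells had 3009 called genes (19.8%), and of the 250 genes 130 were called in both responses, 110 of them in the same direction. In the cell cycle lists E2F1-silenced cells had 3 rises among 50 G1/S genes (median 0.10) and 11 among 52 G2/M genes (median 0.36) with no fall in either list, against 10.1% of all genes higher and 9.75% lower. The difference was positive and passed the test for 8 G1/S and 5 G2/M genes, and for none was it negative. FEN1 had 82.5, 83.7 and 92.3 CPM with R1881 and 69.9, 62.4 and 69.3 CPM with vehicle in E2F1-silenced cells, a smaller response than in E2F2-silenced cells (difference 0.66 ± 0.11, adjusted p = 0.00534). MCM10 had 35.2, 34.5 and 34.1 CPM with R1881 and 34.6, 36.2 and 33.0 CPM with vehicle there (difference 0.89 ± 0.14, adjusted p = 0.0032). The E2F1-silenced levels were above the E2F2-silenced ones in both treatments for each of these genes. FEN1, CDC6 (0.75 ± 0.13), MCM10 and MCM4 (0.65 ± 0.11) kept the call in all 12 fits that left out a library, and the other 9 genes kept it in at most 4.

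Outside the cell cycle, genes named by rule for their difference from E2F1-silenced cells were again IGFBP3 (3.05 ± 0.24, adjusted p = 6.80e-06) and GRIN3A (2.23 ± 0.14, adjusted p = 9.83e-07), together with KCNK3, a potassium channel, at 4.82, 5.52 and 6.49 CPM with R1881 and 20.4, 23.5 and 24.0 CPM with vehicle, against 0, 0 and 0 CPM and 1.61, 1.68 and 1.23 CPM in E2F1-silenced cells. NCAPD3, a condensin subunit on the androgen-induced list, had 234, 178 and 148 CPM with R1881 and 66.2, 63.4 and 76.4 CPM with vehicle, against 1163, 1069 and 1115 CPM and 107, 113 and 113 CPM (difference -1.88 ± 0.20, adjusted p = 7.60e-05). KLK3 responded more strongly with E2F2 siRNA than with E2F1 siRNA (difference 1.55 ± 0.17, adjusted p = 9.35e-05). MYLK, myosin light chain kinase, fell to 14.96, 12.5 and 15.4 CPM with R1881, against 119.8, 114 and 119 CPM with vehicle, in E2F2-silenced cells, and had 10.7, 10.6 and 9.19 CPM and 19.3, 19.4 and 24.0 CPM in E2F1-silenced cells (difference -1.995 ± 0.23, adjusted p = 1.77e-04). The E2F2-silenced libraries enter both of these comparisons, so the genes that recur in them are not independent observations.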

How the data were processed

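Counts per gene were made by the authors with featureCounts of Subread 1.6.4 after TopHat2 2.0.13 alignment to GRCh38, per the submitters' processing notes, which also name CASAVA 1.8.2 and Picard 1.97; settings for strand and for reads matching several places are not given in the sources used here. Libraries were made from Trizol and RNeasy RNA with the TruSeq RNA Exome capture kit, per the labels' protocols, so RNA outside the captured exons was measured only where it came through. The deposited counts were whole numbers for 58037 genes.

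The edgeR 4.0.16 filter (minimum count 10, minimum total 15) kept 15185 genes. A quasi-likelihood F test with 6 group means over all 18 libraries and TMM scaling gave the fold changes, and SE was taken as the log2 fold change over the root of F, in R 4.3.3. P-values were adjusted by Benjamini-Hochberg over all tested genes, with calls under 0.05. Differences between responses are contrasts of the same fit. CPM values are TMM-scaled. The test was also run on simulated counts that had no replicate effect, so that check does not cover the deviation of replicate 3. Alternatives were RLE scaling, no filter, a CPM filter, DESeq2 1.42.0, limma-voom 3.58.1, a replicate block, only the groups compared, replicates 1 and 2 only, leaving out each library, an adjusted p under 0.01 and a 2-fold minimum.

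Same-numbered libraries deviated from their group means together (r of 0.217, 0.224 and 0.449 for R1881 against vehicle, and at least 0.117 for the comparison with control siRNA). These correlations cannot show pairing. A deviation of replicate 3 shared by all groups moves replicates 1 and 2 the other way in each. The correlation with GC content was negative for replicates 1 and 2 and positive for replicate 3 in every group. Libraries were paired by number as an alternative only. Pairing entered the replicate block and the medians paired by number, and not the main fit of group means.

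The comparison, members and gene lists were chosen with earlier results of these data known. Genes named were E2F1, E2F2 and a few fixed androgen and growth genes, the 12 largest rises and falls among called genes whose groups did not overlap and whose average log2 CPM was 1 or more, the 6 largest positive and negative differences in response, and up to 6 called members of each list with the smallest p. Named beyond that rule, after their values were seen, were ORM1, ACPP, TPD52, MERTK, VAPA, DUSP1, TSC22D3, OGT, CCNE2, WDR12, PEG3, MCM6, MCM4, AEN, KRT8, COL1A1, GINS2, PRC1, CDCA8, MALAT1 and marker genes at or near 0. Positions are from GENCODE 29 and promoter sequences from RefSeq, GRCh38.p14. Counting intervals and floors cover counting error only. Some genes are not reported here.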

Additional observations from a re-analysis of the deposited data

Results flagged for a closer look

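The R1881 response differed from that of control-siRNA cells in 135 genes and from that of E2F1-silenced cells in 250 genes, by a test of the difference itself in edgeR with Benjamini-Hochberg adjustment.

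With control siRNA as the comparison, the largest positive differences among genes with an average log2 CPM of 1 or more (log2, E2F2 minus control siRNA) were IGFBP3 at 3.11, REG4 at 2.50, MYOZ1 at 2.09, SLC25A34 at 1.90, GRIN3A at 1.84 and TTR at 1.78. IGFBP3 and GRIN3A kept the call in all 12 fits that left out a library. REG4, which had 0.254, 1.004 and 1.25 CPM with R1881 and 1.20, 1.32 and 1.64 CPM with vehicle in E2F2-silenced cells, against 0.668, 0.714 and 0.519 CPM and 4.68, 5.67 and 7.74 CPM in control cells, lost it in 7 of them, SLC25A34 in 9, TTR in 8 and MYOZ1 in 2, without replicate 2 or replicate 3 of control siRNA with R1881. The largest negative differences were CXCR4 at -2.10, FAM65B at -1.84, BVES at -1.73, DST at -1.53, TMTC2 at -1.44 and NUP93 at -1.44. BVES, a cell adhesion protein, had 7.02, 8.20 and 7.24 CPM with R1881 and 57.1, 57.1 and 44.4 CPM with vehicle in E2F2-silenced cells, against 5.54, 3.14 and 3.89 CPM and 10.1, 8.86 and 7.87 CPM in control cells. FAM65B had 17.7, 17.6 and 15.6 CPM with R1881 and 15.8, 19.4 and 13.2 CPM with vehicle, against 22.04, 25.3 and 20.8 CPM and 5.91, 6.50 and 5.605 CPM, so its response was seen with control siRNA. TMTC2 had 30.6, 32.6 and 30.04 CPM and 44.9, 45.4 and 42.6 CPM, against 29.9, 30.2 and 30.5 CPM and 17.0, 17.1 and 13.3 CPM, and its called responses were in opposite directions.

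With E2F1 siRNA as the comparison, the positive differences on the same limit (E2F2 minus E2F1 siRNA) were KCNK3, fitted at 5.25, LINC01297, fitted at 4.08, IGFBP3 at 3.05, SERPIND1 at 2.83, GRIN3A at 2.23 and S1PR3 at 1.85, and the largest negative ones BVES at -2.89, SOCS2-AS1 at -2.30, MYNN at -2.22, MYLK at -1.995, ACTA2 at -1.89 and NCAPD3 at -1.88. KCNK3 had 0 counts with R1881 and 57 with vehicle in E2F1-silenced cells, so its fitted value depends on the prior count and has no rank; with 3 counts over the group at 0 as the floor, the difference was at least 2.22. LINC01297 had 1 count in E2F2-silenced cells with vehicle, and it lost the call in 3 of 12 fits, without replicate 1 or 2 of E2F2 siRNA with vehicle or replicate 2 of E2F1 siRNA with vehicle. S1PR3, a receptor for sphingosine-1-phosphate, had 108, 114 and 136 CPM with R1881 and 86.3, 91.1 and 85.3 CPM with vehicle in E2F2-silenced cells, against 7.14, 9.71 and 7.83 CPM and 22.8, 22.4 and 20.3 CPM in E2F1-silenced cells. MYNN, a zinc finger protein, had 65.4, 71.0 and 77.3 CPM and 474, 504 and 386 CPM, against 29.3, 26.4 and 23.8 CPM and 42.5, 45.3 and 21.1 CPM. SOCS2-AS1 is antisense to SOCS2, and without a known strand setting its reads cannot be told from those of its partner.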

How the results depend on the processing

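For R1881 against vehicle in E2F2-silenced cells, 3465 genes were called; the count was 3502 with RLE scaling, 2958 with no filter, 3435 with the CPM filter, 3681 by DESeq2, 3422 by limma-voom, 4420 in a fit of only the groups compared, 6927 with replicates 1 and 2 only, 5501 with the replicate number as a block, 1200 at 2-fold or more, and 2721 to 3208 with 1 library left out. For the difference from control siRNA, 135 became 60 with no filter, 317 by DESeq2, 40 with only the groups compared, 1767 with replicates 1 and 2 only, 658 with the block, 37 at an adjusted p under 0.01, 53 at 2-fold or more, and 53 to 208 with 1 library left out, the highest without replicate 3 of control siRNA with vehicle. For the difference from E2F1 siRNA, 250 became 116 with no filter, 406 by DESeq2, 1637 with replicates 1 and 2 only, 732 with the block, 93 at an adjusted p under 0.01, 99 at 2-fold or more, and 129 to 198 with 1 library left out. There the correlations of same-numbered deviations ran from 0.0258 to 0.64. They do not settle whether libraries were paired by design, so the block is given as an alternative fit only. The causes were not tested, apart from the stricter thresholds, which lower the count by construction. Fits with fewer libraries moved the count in both directions. E2F2 itself, at log2 0.65 (adjusted p = 0.719), reversed to -0.67 with replicates 1 and 2 only and to -0.48 without replicate 3 of E2F2 siRNA with R1881, within a range of -0.48 to 1.91 over fits without a library. Scaling moved the share of rises among called genes little, 51.7% by TMM and 52.97% by RLE. Of the 178 genes named by rule, 174 were called, and the replicate block lost none of these calls and added 2, MYC and MT-ATP6 (log2 -0.20, adjusted p = 0.0289).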
